A study of Mus musculus with 12 samples.

Results

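The hypoxia target genes described here are 10 genes that cells switch on when oxygen is low: Car9, Egln3, Adm, Ndrg1, Bnip3, Ankrd37, P4ha1, Ddit4, Pdk1 and Kdm3a. They were taken by gene symbol from a table of 25116 genes measured by bulk RNA-seq in 12 mouse tumours, and all 10 were found and passed the filter on low counts that left 15199 genes. The tumours grew from E0771 cells, a mouse breast cancer line that the labels call triple-negative, implanted in the mammary fat pad of mice of the C57BL/6J strain, from which the line also derives. Every host mouse had the genotype Tie2CreER;ERKi: a tamoxifen-activated Cre recombinase under the endothelial Tie2 promoter, and a knock-in gene for endorepellin that the recombinase turns on. Endorepellin is the C-terminal part of the basement membrane proteoglycan perlecan and is known to inhibit angiogenesis. The induced group (7 tumours) came from hosts given tamoxifen, and the control group (5 tumours) from hosts of the same genotype given a control injection instead. All tumours were taken at day 22. The labels do not give the age or sex of the hosts, the control agent, or whether each tumour came from its own mouse, so the tests measure only the spread between these tumours. Tamoxifen itself was given only to the induced group, so its own effect and that of endorepellin cannot be told apart.

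When oxygen is plentiful, prolyl hydroxylases mark the alpha subunits of hypoxia-inducible factor (HIF) for destruction by the von Hippel-Lindau ubiquitin ligase. When oxygen falls, HIF-alpha accumulates, pairs with Arnt and binds short DNA motifs with the core ACGTG or GCGTG near its target genes. The targets shift metabolism to glycolysis, restrain mitochondria, regulate pH, prepare collagen and call for blood vessels. Solid tumours often hold poorly perfused regions, so these genes are widely used as a readout of tumour oxygen supply, and the comparison sets them in tumours whose host endothelium can express an angiogenesis inhibitor against those where it was not induced.

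The promoter sequences of 9 of the 10 genes, all but Ndrg1, were found in a RefSeq table on GRCm38.p6, as windows of 250 bases before to 50 after each annotated start, with 12 windows in all because Pdk1 and Kdm3a have several. The letters ACGTG were found on either strand in 6 of the 12 windows, each of a different gene, against 19.6% of all 32851 promoters in the table. The letters ACGTG or GCGTG were found in 9 of the 12 windows, at least 1 per gene, against 43.8% of all promoters. The windows of these genes were also richer in CG dinucleotides, with a median of 24 against 7 over all promoters, and the part of that richness in the matches was not tested. A match is a description of letters and not of HIF binding. Bnip3 and P4ha1 are printed as genes whose levels followed those of the others over all 12 tumours. Car9 and Kdm3a are printed as genes whose levels did not. Egln3, which followed the others most closely (Pearson r 0.937 with the mean of the other 9), has only 1 match. Adm and Pdk1, which also followed the others, hold no ACGTG. Whether the matches go with how closely a gene followed the others was not tested. Capitals mark ACGTG and GCGTG or their reverse complements CACGT and CACGC, 5′ to 3′ along the strand of the gene. The windows are chr7:138909457-138909756 (minus strand) for Bnip3, chr10:59323046-59323345 (plus strand) for P4ha1, chr4:43506776-43507075 (plus strand) for Car9 and chr6:71632868-71633167 (minus strand) for Kdm3a, on GRCm38.p6.
Bnip3: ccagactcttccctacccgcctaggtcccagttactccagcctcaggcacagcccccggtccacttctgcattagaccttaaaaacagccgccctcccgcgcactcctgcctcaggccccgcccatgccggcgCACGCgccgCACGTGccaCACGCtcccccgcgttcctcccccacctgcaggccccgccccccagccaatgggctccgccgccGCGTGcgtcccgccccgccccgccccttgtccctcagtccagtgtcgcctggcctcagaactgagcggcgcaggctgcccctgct
P4ha1: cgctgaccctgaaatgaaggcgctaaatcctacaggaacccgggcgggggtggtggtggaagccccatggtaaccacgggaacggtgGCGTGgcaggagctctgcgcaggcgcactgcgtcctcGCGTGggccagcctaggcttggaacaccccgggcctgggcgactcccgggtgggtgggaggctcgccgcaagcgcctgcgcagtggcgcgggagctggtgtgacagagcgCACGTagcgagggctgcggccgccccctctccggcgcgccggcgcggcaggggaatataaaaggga
Car9: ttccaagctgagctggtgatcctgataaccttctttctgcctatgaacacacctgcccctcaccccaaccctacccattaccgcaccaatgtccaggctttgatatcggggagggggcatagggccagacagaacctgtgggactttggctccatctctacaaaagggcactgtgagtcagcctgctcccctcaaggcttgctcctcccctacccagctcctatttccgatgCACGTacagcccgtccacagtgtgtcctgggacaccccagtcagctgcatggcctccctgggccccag
Kdm3a: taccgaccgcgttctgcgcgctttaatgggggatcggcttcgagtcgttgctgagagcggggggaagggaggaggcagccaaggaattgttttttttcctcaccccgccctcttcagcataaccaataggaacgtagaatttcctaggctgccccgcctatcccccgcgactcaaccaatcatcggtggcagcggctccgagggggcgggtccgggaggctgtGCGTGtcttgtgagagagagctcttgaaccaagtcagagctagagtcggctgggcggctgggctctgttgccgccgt
In Bnip3 the run CACGTG holds overlapping matches on both strands, which begin 108 and 107 bases before the start, and 3 GCGTG matches lie 117, 99 and 35 bases before it. In P4ha1 the single ACGTG match begins 16 bases before the start, with GCGTG 163 and 126 bases before it. Car9 has 1 ACGTG match, 18 bases before the RefSeq start. The gene positions given below are from another annotation, GENCODE, in which Car9, Ankrd37, Kdm3a, Ddit4 and Bnip3 begin farther upstream. The matches of Car9, Kdm3a and Ankrd37 therefore lie within the gene spans given there. Kdm3a has no ACGTG in any of its 3 windows and 1 GCGTG, 27 bases before the start. The other ACGTG matches lie 241 and 6 bases before the start in Ankrd37, 187 in Ddit4 and 229 in Egln3, whereas the windows of Adm and Pdk1 hold GCGTG alone.

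Of the 12 tumours, induced 3, induced 4, control 1 and control 2 stood apart in their stromal genes in earlier results of these data. Their sums over 8 fibroblast markers were 1285, 2216, 3577 and 1343 CPM, against 632 to 1112 CPM in the other tumours. Single markers did not all follow: Col1a1 was at 47.4 CPM in induced 3 and 78.8 CPM in induced 5. Without induced 3, induced 4, control 1 and control 2, 0 of the 10 hypoxia target genes were called and the median log2 fold change of the 10 was -0.014. In that setting single genes lay farther from 0 than over all 12 tumours: Car9 at -0.44 against -0.081, Ddit4 at -0.41 against -0.24 and Ndrg1 at 0.33 against 0.20 in log2 fold change. None of the 10 hypoxia target genes passed the test between induced and control tumours. By edgeR's quasi-likelihood test, 0 of the 10 had an adjusted p under 0.05, beside 0 of all 15199 genes (0%), and the adjusted p of each was 0.99989. Without adjustment, 0 of the 10 had a p under 0.05, beside 324 of all genes (2.13%). DESeq2, and limma-voom with quality weights that count more variable tumours less, called 0 genes at the threshold as well. Before adjustment they called 391 and 995. The fold change was above 1 for 3 of the 10 genes and below 1 for 7, beside 49.8% above 1 over all genes. The median log2 fold change, induced minus control, was -0.051 for the 10 genes and -0.00083 over all genes. The direction turned on single tumours: the count above 1 was 1 without induced 7 or without control 3, 5 without control 2 or without control 4, and 6 without control 5, where the median was 0.049. In no gene did the groups separate, whereas over all genes the groups did not overlap for 9 (0.0592%). In the authors' deposited table the log2 fold changes of the 10 genes ran from -0.23 for Ddit4 to 0.20 for Ndrg1, each with an adjusted p of 0.994.

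**Figure D1:**
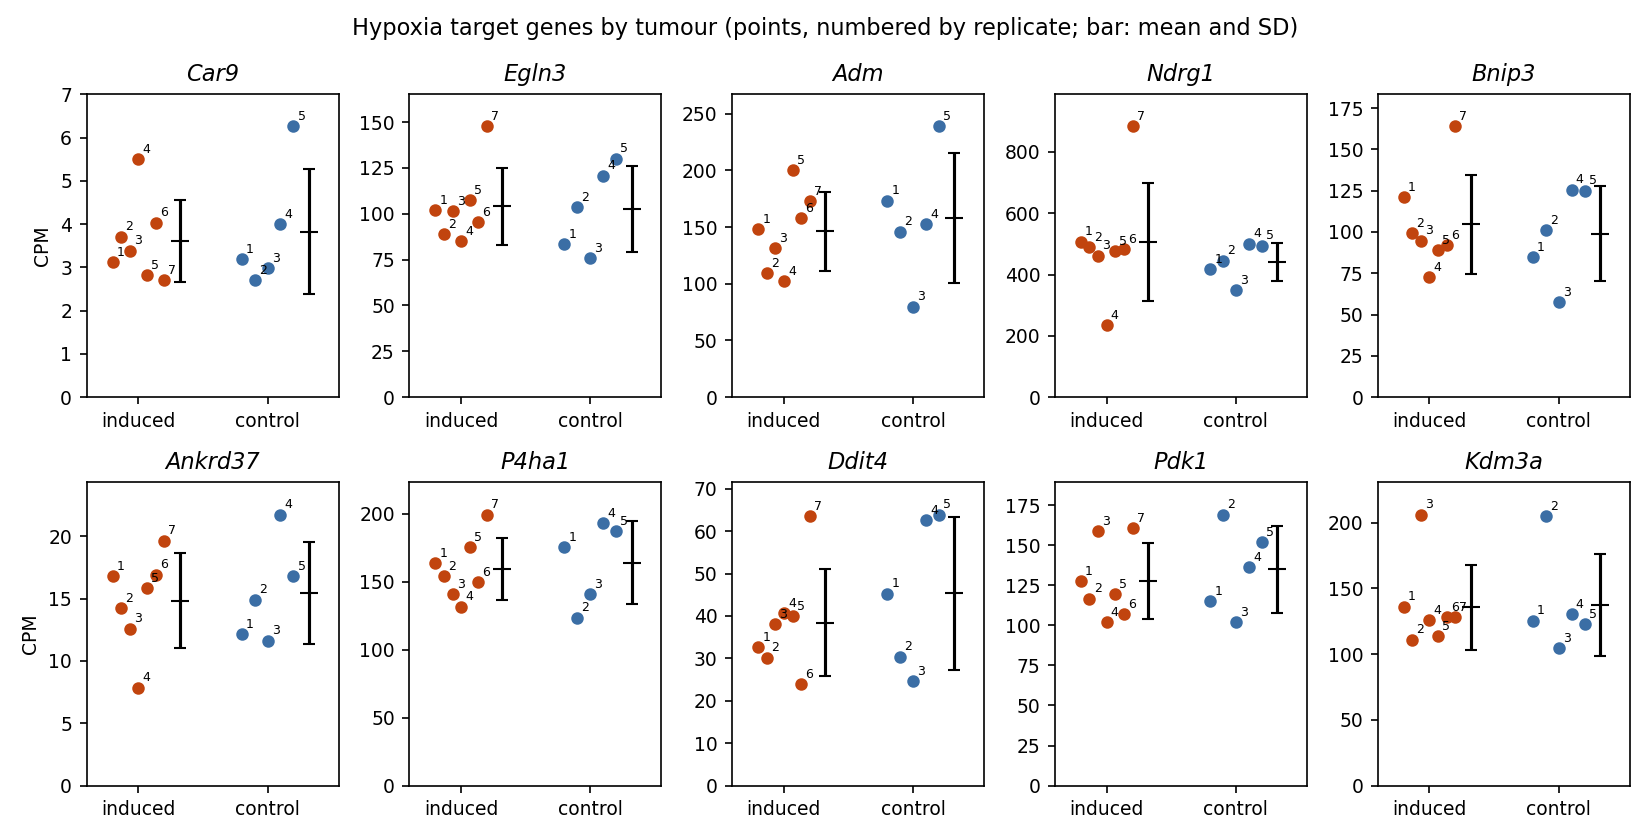
Read counts scaled to library total (CPM, vertical axes from 0) of the 10 hypoxia target genes in each of 7 induced (red) and 5 control (blue) tumours, numbered by replicate, with the mean and SD of each group as a black bar. The groups overlap in every panel, and induced 7 is the highest tumour for Egln3, Ndrg1, Bnip3 and P4ha1.

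Levels are given in CPM, in which each count is divided by its TMM-scaled library total, and which compare tumours for 1 gene. In bulk tumours fewer cells that express a gene and less RNA per cell cannot be told apart. Egln3, a prolyl hydroxylase that acts on HIF-alpha and is itself a HIF target, stands for the sensing arm (chromosome 12, 54178981 to 54203860, minus strand, GRCm38). Its level was between 85.1 and 148 CPM in induced tumours, with a median of 101 CPM, against 83.3, 104, 75.9, 121 and 130 CPM in control 1 to 5. Induced 7 alone lay above all control tumours, and the other 6 lay within the control range. The means were 104 ± 20.9 CPM in induced and 103 ± 23.3 CPM in control tumours (SD, n = 7 and n = 5), a log2 fold change of 0.018 (SE 0.16, edgeR). The difference in mean log2 CPM had a 95% interval from -0.34 to 0.41, from inverting an exact permutation test, which covers fold changes from 0.790 to 1.33.

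Car9 codes for a carbonic anhydrase of the cell surface that regulates pH, and is among the most widely used tissue markers of hypoxia (chromosome 4, 43506966 to 43513729, plus strand). It was the least abundant of the 10, with 59 to 149 counts per tumour. Its level was 2.71 to 5.50 CPM in induced tumours, with a median of 3.39 CPM, against 3.19, 2.70, 2.98, 3.99 and 6.27 CPM in control 1 to 5. Control 5 and induced 4 stood above the rest, and all 7 induced tumours lay within the control range. The means were 3.61 ± 0.957 CPM in induced and 3.83 ± 1.45 CPM in control tumours (SD, n = 7 and n = 5), with a log2 fold change of -0.081 (SE 0.25). At its mean count, counting alone gives a coefficient of variation of 10.9%, against 30.5% observed over the 12 tumours. The 95% interval of its difference was -0.58 to 0.46 in log2 CPM.

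Adm, the precursor of the secreted vasodilator peptide adrenomedullin that acts on endothelial cells, is the only ligand of the set (chromosome 7, 110627661 to 110629820, plus strand). Its level was 102 to 200.4 CPM in induced tumours, with a median of 148 CPM, against 173, 146, 79.9, 152 and 239 CPM in control 1 to 5. Both the lowest and the highest tumour were controls, so all induced tumours lay within the control range. The means were 146 ± 35.0 CPM in induced and 158 ± 57.2 CPM in control tumours (SD, n = 7 and n = 5), a log2 fold change of -0.11 (SE 0.23) with an interval of the difference in log2 CPM from -0.62 to 0.53. Of the parts of its receptors, Calcrl was at 4.64 ± 1.21 CPM in induced and 5.50 ± 3.22 CPM in control tumours (SD, n = 7 and n = 5). Ramp2 was at 21.7 ± 3.58 CPM in induced and 19.9 ± 4.63 CPM in control tumours. Ramp3 was at 2.15 ± 1.17 CPM in induced and 3.06 ± 1.77 CPM in control tumours. These receptor genes were picked after their values were seen.

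Pdk1 and Bnip3 act on mitochondria. Pdk1, a kinase that inhibits pyruvate dehydrogenase and so keeps pyruvate out of the mitochondrial cycle (chromosome 2, 71873224 to 71903858, plus strand), was at 102 to 161 CPM in induced tumours, with a median of 119 CPM, against 115, 169, 102, 136 and 152 CPM in control 1 to 5. All induced tumours lay within the control range, and control 2, induced 7 and induced 3 were the highest. Its means were 127 ± 23.6 CPM in induced and 135 ± 27.0 CPM in control tumours (SD, n = 7 and n = 5), a log2 fold change of -0.082 (SE 0.15). Bnip3, a receptor for mitophagy on the outer mitochondrial membrane (chromosome 7, 138890836 to 138909519, minus strand), was at 72.8 to 164 CPM in induced tumours, with a median of 94.7 CPM, against 84.8, 101, 57.7, 126 and 125 CPM in control 1 to 5. Induced 7 was the highest of all 12 and control 3 the lowest. Its means were 105 ± 29.9 CPM in induced and 98.8 ± 28.7 CPM in control tumours (SD, n = 7 and n = 5), a log2 fold change of 0.083 (SE 0.22). The intervals of the difference in log2 CPM were -0.44 to 0.28 for Pdk1 and -0.44 to 0.66 for Bnip3. Of the exonic bases of Bnip3, 22.3% also lie in Gm45507 on the opposite strand, and no source used here says whether counting used strand.

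P4ha1 and Kdm3a code for oxygen-dependent dioxygenases. P4ha1, a catalytic subunit of the enzyme that hydroxylates prolines in collagen (chromosome 10, 59323296 to 59373304, plus strand), varied least, with 132 to 199 CPM in induced tumours and a median of 154 CPM, against 175, 124, 141, 193 and 187 CPM in control 1 to 5. Induced 7 lay above all control tumours and the other 6 within their range. Its means were 159 ± 22.8 CPM in induced and 164 ± 30.4 CPM in control tumours (SD, n = 7 and n = 5), a log2 fold change of -0.043 (SE 0.13), and the interval of the difference in log2 CPM, -0.34 to 0.27, was the narrowest of the 10. Kdm3a, a histone lysine demethylase (chromosome 6, 71588972 to 71632990, minus strand), was at 111 to 206 CPM in induced tumours, with a median of 128 CPM, against 126, 205, 104, 130 and 123 CPM in control 1 to 5. Induced 3 and control 2, at 206 and 205 CPM, stood far above the other 10 tumours, of which the highest was at 136 CPM. Its means were 136 ± 32.3 CPM in induced and 138 ± 38.9 CPM in control tumours (SD, n = 7 and n = 5), a log2 fold change of -0.022 (SE 0.18) with an interval of the difference from -0.42 to 0.39.

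Ddit4, Ndrg1 and Ankrd37 make up the remaining targets. Ddit4, an inhibitor of mTOR signalling that also answers to other stresses (chromosome 10, 59949669 to 59951834, minus strand), had the largest difference of the 10 in size and the widest interval. Its level was 24.0 to 63.5 CPM in induced tumours, with a median of 38.1 CPM, against 45.2, 30.4, 24.6, 62.6 and 63.9 CPM in control 1 to 5. Induced 7, control 4 and control 5 lay between 62.6 and 63.9 CPM, while the other 9 tumours were at 45.2 CPM or less. Its means were 38.5 ± 12.6 CPM in induced and 45.4 ± 18.0 CPM in control tumours (SD, n = 7 and n = 5), a log2 fold change of -0.24 (SE 0.27). The interval of the difference in log2 CPM was -0.87 to 0.51, which covers fold changes from 0.547 to 1.42. The log2 fold change was -0.40 without induced 7 and -0.078 without control 5.

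Ndrg1, a cytoplasmic protein induced by stress and differentiation (chromosome 15, 66929318 to 66969640, minus strand), had the most counts of the 10. Its level was 236 to 884 CPM in induced tumours, with a median of 484 CPM, against 417, 446, 350, 501 and 494 CPM in control 1 to 5. Both ends of the range were induced tumours, induced 4 below and induced 7 above every control, a 3.75-fold span. Its means were 506 ± 191 CPM in induced and 442 ± 62.0 CPM in control tumours (SD, n = 7 and n = 5), a log2 fold change of 0.20 (SE 0.23), which was 0.0036 without induced 7 and 0.32 without induced 4. Ankrd37, a small ankyrin repeat protein (chromosome 8, 45996902 to 46005707, minus strand), was at 7.86 to 19.7 CPM in induced tumours, with a median of 15.9 CPM, against 12.2, 14.9, 11.6, 21.7 and 16.8 CPM in control 1 to 5. Induced 4 was the lowest of all 12 and control 4 the highest. Its means were 14.8 ± 3.80 CPM in induced and 15.5 ± 4.10 CPM in control tumours (SD, n = 7 and n = 5), a log2 fold change of -0.058 (SE 0.21). The intervals of the difference in log2 CPM were -0.47 to 0.66 for Ndrg1 and -0.61 to 0.43 for Ankrd37. Of the exonic bases of Ankrd37, 22.7% also lie in exons of Lrp2bp on the opposite strand. Exons of other opposite-strand genes cover 3.7% in Ankrd37 (Ufsp2) and 6.35% and 2.08% in Ndrg1 (Gm17035, Gm2895). In Car9, the gene with the fewest counts, the share is 9.29% (Gm12454).

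**Figure D2:**
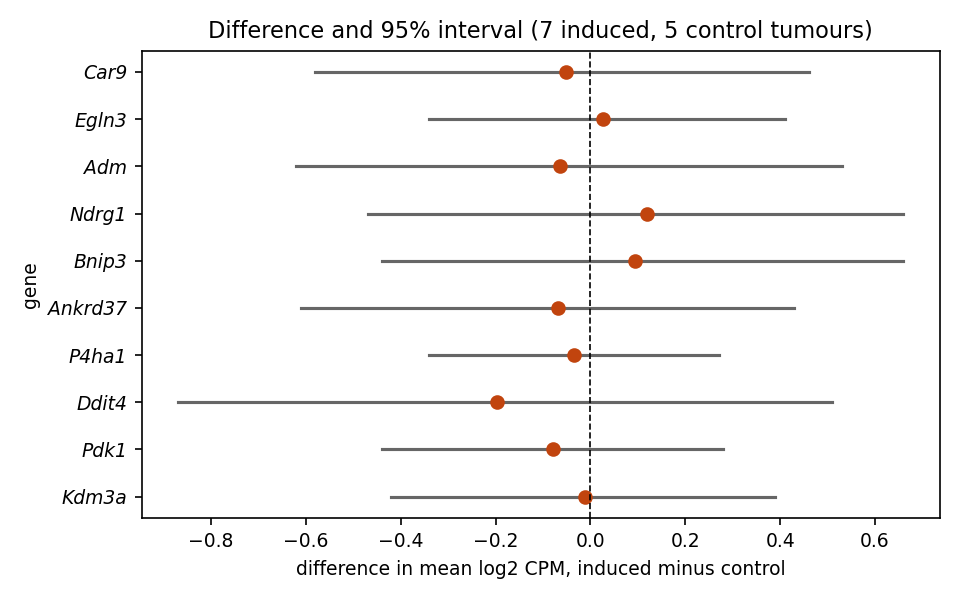
Difference in mean log2 CPM, induced minus control (horizontal axis; points), with its 95% interval from an exact permutation test (lines) for each of the 10 hypoxia target genes. Every interval holds 0, and their widths differ, from P4ha1 (-0.34 to 0.27) to Ddit4 (-0.87 to 0.51).

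Levels between genes were compared as CPM per kilobase of exonic sequence, averaged over the 12 tumours. Adm was the highest at 93.3, followed by Ndrg1 at 72.6, Bnip3 at 45.1, P4ha1 at 39.2 and Egln3 at 38.9 CPM per kilobase. Ddit4 was at 23.5, Pdk1 at 16.8, Kdm3a at 16.6, Ankrd37 at 9.81 and Car9 at 1.61 CPM per kilobase. The ranges of neighbours in this order overlapped, except that the highest Car9 value, 2.72, lay below the lowest Ankrd37 value, 5.11 CPM per kilobase.

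Over the 12 tumours the highest level of a gene was 1.61 (P4ha1) to 3.75 (Ndrg1) times its lowest, and most of the 10 genes were high and low in the same tumours. Ranked over the 12 tumours, 7 of the 10 genes had induced 7 among their 3 highest tumours, and 6 of 10 had control 4 there and 6 had control 5. At the other end, 9 of the 10 had control 3 among their 3 lowest tumours and 7 had induced 4 there. High and low tumours thus came from both groups. The mean over the 10 genes of log2 CPM centred on each gene, called the hypoxia score, was 0.38 in induced 7, the highest induced tumour, and -0.31 in induced 4, the lowest, against 0.36 in control 5 and -0.46 in control 3. The SD of log2 CPM over the 12 tumours ran from 0.23 for P4ha1 to 0.50 for Ddit4. Among 11958 genes with a mean log2 CPM over 1, these SDs stood at percentile 41.2 for P4ha1 and 84.8 for Ddit4, with 5 of the 10 genes above percentile 75.

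**Figure D3:**
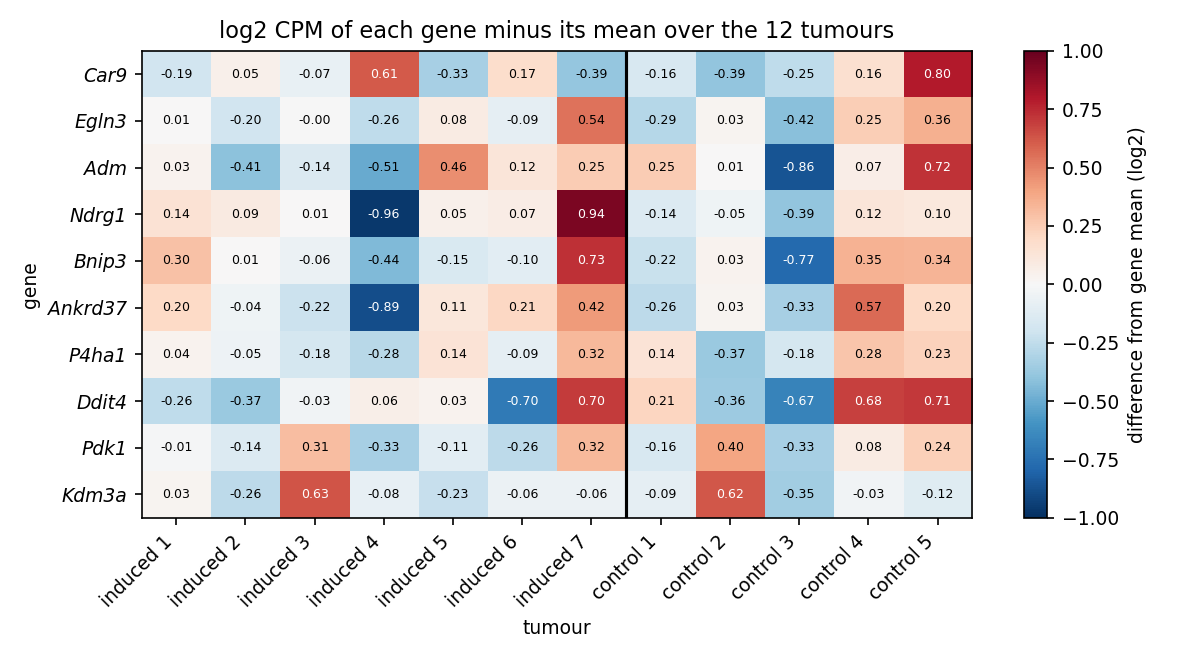
Each cell shows log2 CPM of 1 gene (row) in 1 tumour (column) minus the mean of the gene over the 12 tumours, from blue (lower) to red (higher), with induced tumours left of the black line and control tumours right of it. Induced 7, control 4 and control 5 are red for most genes, induced 4 and control 3 are blue for most, and Kdm3a is highest in induced 3 and control 2.

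Of the 10 genes, 8 followed the others closely over the tumours and 2 did not. As a description over 12 tumours, which share the scaling of each library between all genes, Egln3 had a Pearson r of 0.937 with the mean of the other 9 and Bnip3 of 0.904. Adm, Pdk1, Ankrd37, P4ha1, Ndrg1 and Ddit4 lay between 0.672 and 0.729. Without induced 7 and control 3, the tumours farthest from the median of the score, r was 0.905 for Egln3, 0.808 for Bnip3 and 0.460 to 0.648 for those 6 genes. Car9 had an r of -0.068 and Kdm3a of 0.077. Car9 was low in induced 7, at 2.71 CPM, where 7 of the other 9 targets were among their 3 highest tumours, and was second only to control 5 in induced 4, where most others were low. Of the 45 pairs of genes, 38 had a positive r, from -0.432 for P4ha1 and Kdm3a to 0.903 for Egln3 and Bnip3. In the 8 tumours left without induced 3, induced 4, control 1 and control 2, 44 of 45 pairs had a positive r, and r with the other 9 genes was 0.652 for Kdm3a and 0.219 for Car9. The tumours left out include induced 3 and control 2, the highest for Kdm3a.

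The mean r over all pairs of the 10 genes was 0.399 over 12 tumours, against 0.352 for 16 glycolysis and lactate export genes, 0.118 for 14 genes of the integrated stress response and 0.0051 for all 11958 genes. In the 8 tumours it was 0.631, against 0.399 for glycolysis, 0.293 for the stress response and 0.0054 for all genes. For the 37 other hypoxia targets it was only 0.054 over 12 tumours and 0.136 in the 8. For 18 oxygen sensing and HIF genes it was 0.023 and 0.089. Hypoxia targets outside the set were split: of 37 other hypoxia targets tested, 13 had an r over 0.5 with the hypoxia score, as did 12 of 16 glycolysis genes, beside 7.43% of all genes. The r of the 37 had a median of 0.331 and ran from -0.565 for Stc2, a secreted glycoprotein, to 0.804 for Plod1, a collagen lysyl hydroxylase. Among those with a negative r were Gbe1 at -0.549, Loxl2 at -0.513 and Lox at -0.496. Vegfa, the vessel growth factor that HIF induces, had an r of 0.696 with the score, and Hilpda, a lipid droplet protein, one of 0.756; the genes named here for their r were picked after their values were seen.

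**Figure D4:**
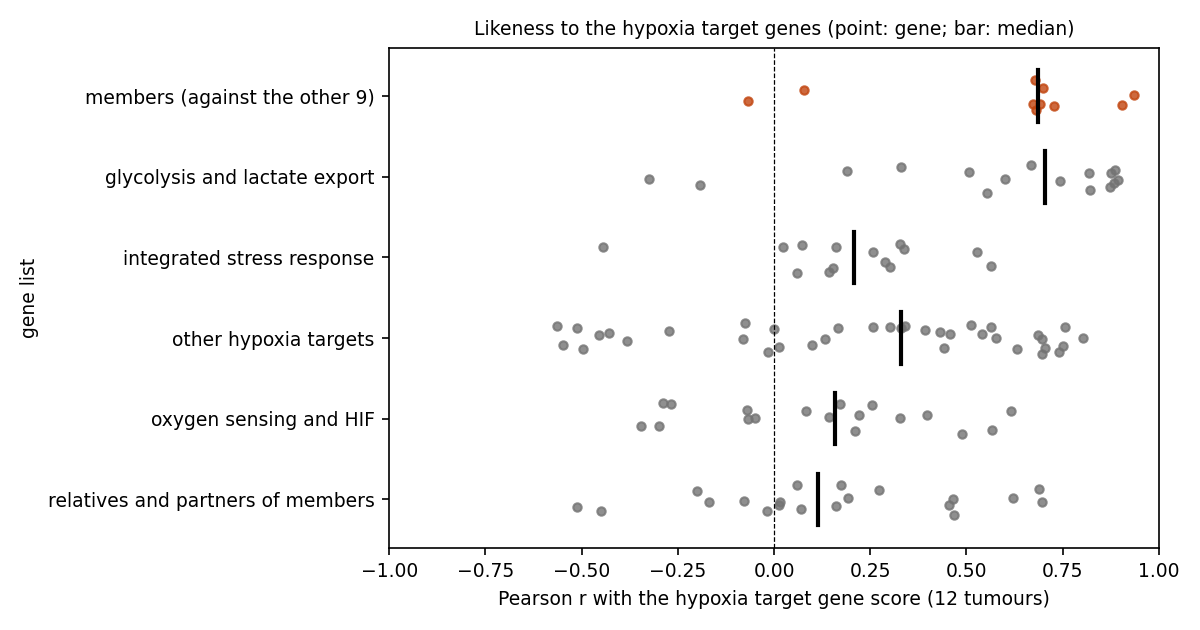
Pearson r over 12 tumours (horizontal axis) between each gene and the hypoxia score, by gene list (rows), with the list median as a black bar; each of the 10 hypoxia target genes (red, top row) is set against the mean of the other 9. The red points lie above 0.67 except Car9 and Kdm3a, and the glycolysis list has a median of 0.705.

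Genes outside the set with a mean log2 CPM over 1 were ranked by r over 12 tumours, with predicted, Riken and other provisional names left out. The 10 with the highest r were Lefty1, Pfkl, Grhpr, Pgk1, Chmp7, Slc2a1, Tpi1, Gpi1, Spats2 and Parp16, with r from 0.859 to 0.899. Of these, 5 are on the glycolysis list: Slc2a1, the main glucose transporter of many tumour cells, and Gpi1, Pfkl, Tpi1 and Pgk1, enzymes of successive parts of glycolysis. Without induced 7 and control 3, r was 0.944 for Pfkl, 0.837 for Slc2a1 and 0.796 for Pgk1. Their group differences were as small as those of the hypoxia genes, with log2 fold changes of -0.17 (SE 0.14) for Pfkl, 0.0053 (SE 0.17) for Slc2a1 and -0.016 (SE 0.13) for Pgk1. As the genes were picked for their r, its size is no separate support.

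No gene of the wider pathway lists passed the test, and the lists are described by their counts and medians, beside 49.8% higher and a median of -0.00083 over all genes. Of 18 oxygen sensing and HIF genes tested, 12 were higher and 6 lower in induced tumours in their point estimate, with a median log2 fold change of 0.021. Hif1a, the broadly expressed HIF-alpha subunit, had a log2 fold change of -0.11 (SE 0.14), Egln2, a prolyl hydroxylase, -0.12 (SE 0.16), Cul2, the scaffold of the von Hippel-Lindau ligase, -0.088 (SE 0.072), and Siah1a, a ubiquitin ligase that acts on prolyl hydroxylases, 0.21 (SE 0.18). Of 16 glycolysis genes 3 were higher and 13 lower, with a median of -0.052; Pfkfb3, which makes the activator of phosphofructokinase, was at 36.4 ± 7.66 CPM in induced and 47.6 ± 22.1 CPM in control tumours (SD, n = 7 and n = 5), and Pfkp and Gapdh had log2 fold changes of -0.11 (SE 0.081) and -0.19 (SE 0.18).

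Of 37 other hypoxia targets, 18 were higher and 19 lower, with a median log2 fold change of -0.021. Insig2, a regulator of sterol synthesis, was the only gene of these lists with an unadjusted p under 0.05, at 53.5 ± 5.09 CPM in induced and 44.6 ± 5.23 CPM in control tumours (SD, n = 7 and n = 5; log2 fold change 0.26, SE 0.098; adjusted p = 0.99989, edgeR). Pygl, the liver form of glycogen phosphorylase, had a log2 fold change of -0.90 (SE 0.52) and Wsb1 of 0.19 (SE 0.14). Of 20 tested relatives and partners of the 10 genes, 9 were higher and 11 lower, with a median of -0.0094; Car2, a cytosolic carbonic anhydrase, was at 0.56 (SE 0.28), Ndrg4 at 0.39 (SE 0.21), Ndrg3 at 0.14 (SE 0.092) and Ramp1, a receptor accessory protein, at -0.85 (SE 0.56) on the log2 fold change scale. Of 14 genes of the integrated stress response, 8 were higher and 6 lower, with a median of 0.013; Phgdh, Atf3, Slc7a11 and Ppp1r15a had log2 fold changes of -0.14 (SE 0.14), -0.22 (SE 0.22), -0.26 (SE 0.33) and 0.091 (SE 0.14).

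Markers of the cells in the tumour pieces varied between tumours within both groups. Summed over 6 epithelial markers, of which 3 passed the filter, levels were 2.28 to 4.73 CPM in induced and 1.89 to 7.07 CPM in control tumours, low in all 12 tumours. Endothelial markers (10 of 10 matched) summed to 150 to 212 CPM in induced and 151 to 214 CPM in control tumours. The sums were 632 to 2216 CPM in induced and 767 to 3577 CPM in control tumours for 8 fibroblast markers, and 167 to 1099 CPM in induced and 298 to 1874 CPM in control tumours for 8 leukocyte and macrophage markers. For 6 neutrophil markers they were 11.5 to 27.7 CPM in induced and 13.1 to 122 CPM in control tumours, and for 7 T and B cell markers 3.45 to 13.7 CPM in induced and 3.99 to 29.4 CPM in control tumours. For 7 skeletal muscle markers they were 15.9 to 433 CPM in induced and 7.94 to 502 CPM in control tumours. For 5 adipocyte markers they were 21.7 to 61.6 CPM in induced and 25.4 to 57.6 CPM in control tumours, and for 5 erythrocyte markers 22.1 to 467 CPM in induced and 74.9 to 156 CPM in control tumours. For the 3 of 5 skin markers that were matched they were 0.092 to 2.33 CPM in induced and 0.098 to 2.11 CPM in control tumours. No matched marker was at 0 in all tumours. No tested marker passed the adjusted threshold. The fold change was below 1 for 8 of 8 fibroblast markers (median log2 fold change -1.01, and -2.08 without induced 4) and 8 of 8 leukocyte and macrophage markers (-0.68, and -1.14 without induced 4), but without control 1, which had the highest sums of both lists, it was below 1 for 3 of 8 fibroblast markers (0.78) and 2 of 8 leukocyte and macrophage markers (0.15). It was below 1 for 4 of 5 tested neutrophil markers, of which 4 had an unadjusted p under 0.05, with a median log2 fold change of -1.95, which was -0.97 without control 2. It was below 1 for 4 of 4 tested T and B cell markers (median -1.01). It was above 1 for 5 of 5 erythrocyte markers (median 0.32), and for 1 of 5 without induced 5 (-0.28). Induced 4, low for 7 of the 10 hypoxia genes, had the highest fibroblast, leukocyte and muscle sums of the induced tumours, and induced 7, high for 7 of 10, had the lowest leukocyte, muscle and endothelial sums of them. Control 3, low for 9 of the 10 genes, had the lowest fibroblast and leukocyte sums of the control tumours, 767 and 298 CPM, and control 1, low for 4 of 10, the highest. The endothelial sum was highest of all 12 tumours in control 3, at 214 CPM, and lowest in induced 7, at 150 CPM. It was 152 CPM in control 4 and 199 CPM in control 5, both high for 6 of 10 genes, and 163 CPM in induced 4. Control 4, high for 6 of 10, had the highest muscle sum of all 12 tumours, 502 CPM. Their part in the hypoxia gene levels was not tested. Total counts ran from 18993192 to 28372821 per library, with induced 7 the most deeply sequenced.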

How the data were processed

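Bulk RNA-seq counts were analysed for 7 induced and 5 control tumours, grouped by sample title. Per the labels' protocols, libraries were made from total RNA with a SMARTER mRNA-seq kit; per the submitters' processing notes the build was GRCm38 (mm10). The sources used here name no aligner, counter, annotation or strand setting. The authors deposited whole-number counts per Ensembl gene, matched to samples by library name. Per the file headers, they also deposited a log2 fold change and p-values, raw and adjusted, from a test that was not given in the sources used here. A growth protocol in the labels concerns an unrelated cell line and was set aside.

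Counts were fitted with edgeR 4.0.16 in R 4.3.3: filterByExpr (minimum count 10; 15199 of 25116 genes kept), TMM, robust quasi-likelihood F test, two-sided, Benjamini-Hochberg adjustment over all tested genes, threshold 0.05. Fold changes are induced minus control with SE from the same fit. Log2 CPM used a prior count of 2. Intervals invert an exact two-sided permutation test over 792 splits. Positions and exonic lengths are from GENCODE M21 (GRCm38). Counts were simulated for this comparison over 14889 genes. In these, 69 of 100 genes changed 2-fold and 95 of 100 changed 4-fold were called, none with the wrong sign. Of 14689 unchanged genes, 10 were called. All changed genes were drawn from those with a mean log2 CPM over 2, which leaves out genes as low as Car9. The shares depend on how many genes were changed, so they are not the power for the 10 hypoxia target genes.

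The 10 genes, the gene lists and the alternatives (DESeq2 1.42.0, limma 3.58.1 and others) were chosen with earlier results of these data known. The rule for named genes took all 10, up to 4 genes of smallest p per list, and the 10 genes of highest r with the score. Genes with predicted, Riken or other provisional names were left out of that ranking by r. A gene that this rule named is not reported here.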

Additional observations from a re-analysis of the deposited data

Results flagged for a closer look

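In 20 groups examined (10 genes in each of the 2 groups), the highest tumour stood apart from the rest of its group in 5, by Dixon's test of the gap to the nearest tumour against the whole range. Chance flags about 1 in 20 groups if values are normally distributed, which was not tested. The flags are on CPM alone. On log2 CPM, used for the intervals and r, a highest tumour stands apart by a smaller share of the range. The count of 5 is therefore not read as more than chance. Induced 7 stood apart from the other induced tumours for 3 genes: Egln3 at 148 CPM with the next at 108 CPM, Ndrg1 at 884 CPM with the next at 507 CPM, and Ddit4 at 63.5 CPM with the next at 40.7 CPM. Kdm3a stood apart in induced 3 at 206 CPM, with the next induced tumour at 136 CPM, and in control 2 at 205 CPM, with the next control tumour at 130 CPM. The 5 results are not independent, since induced 7 accounts for 3 of them and the genes vary together.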

How the results depend on the processing

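In all 21 alternatives 0 genes, and 0 of the 10 hypoxia target genes, had an adjusted p under 0.05. The count of the 10 above a fold change of 1, which was 3, became 1 with limma-voom and quality weights. It became 0 with the replicate block, which used replicates 1 to 5 only and so left out induced 6 and induced 7. The count ran from 1 to 6 without single tumours, and was 1 without induced 7. The median log2 fold change ran from -0.14 to 0.049 without single tumours. With limma-voom and quality weights the log2 fold change was -0.13 for Egln3 and -0.034 for Bnip3. Without a change of sign it was -0.44 for Car9 and -0.49 for Ddit4. With the replicate block it was -0.068 for Egln3, -0.065 for Ndrg1 and -0.024 for Bnip3. When induced 7 alone was left out, with no block, it was -0.087 for Egln3, 0.0036 for Ndrg1 and -0.060 for Bnip3. Without control 1, control 2, induced 3 and induced 4 it was -0.017 for Egln3 and 0.041 for Kdm3a, and with a term for that split -0.0060 for Egln3 and 0.034 for Kdm3a. Without single tumours it ran from -0.087 to 0.12 for Egln3, -0.15 to 0.16 for Kdm3a, -0.070 to 0.19 for Bnip3, -0.16 to 0.087 for Ankrd37, -0.14 to 0.014 for P4ha1, -0.18 to 0.0022 for Pdk1, -0.21 to 0.17 for Car9 and -0.29 to 0.087 for Adm. The cause was not tested. Ddit4 kept its sign in all 21. Replicate numbers did not pair the tumours: same-numbered tumours had correlations of their deviations from -0.563 to 0.330, and 1 of 5 induced tumours correlated best with its own number. The genes called at an unadjusted p under 0.05 numbered 324, and 105 to 995 in the alternatives. Depth limits Car9 most, with 59 counts in its lowest tumour.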
